A study of Homo sapiens with 27 samples.

Results

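The genes described here are MYC, MAX and their partners of the extended MAX network, MXD1, MXD3, MXD4, MXI1, MNT, MLX and MLXIP, together with TXNIP. They are 10 of the 27115 genes listed for each library, were picked by name, and all 10 were among the 13076 genes that reached at least 1 CPM (reads on the gene, scaled to the size of the library) in at least 3 libraries. Their mRNA was measured by RNA-seq in Karpas422, OCI-Ly1 and HBL1, established lines of diffuse large B-cell lymphoma (DLBCL) that stand for the OXPHOS (high expression of oxidative phosphorylation genes), germinal center B-cell like and activated B-cell like subtypes. Each line received a scrambled control shRNA (shCTRL) or shSIRT3-1 or shSIRT3-2, which target the mitochondrial deacetylase SIRT3, and total RNA was taken on day 8, with 3 replicates in each of the 9 groups. All cells, controls included, carried a lentiviral vector with a puromycin resistance gene and YFP. By the paper's methods, OCI-Ly1 was kept in Iscove's medium, and Karpas422 and HBL1 in RPMI. Line and medium therefore cannot be told apart wherever OCI-Ly1 is compared with another line. The labels do not say whether replicates came from separate cultures, so the p-values measure only the spread between these libraries.

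MYC binds DNA as a dimer with MAX, at E-box sequences such as CACGTG, and activates genes of growth, ribosome production and metabolism. MXD1, MXD3, MXD4, MXI1 and MNT also pair with MAX, recruit SIN3 and histone deacetylases, and repress genes with the same sites. MLX pairs with MLXIP (MondoA), which senses glucose-6-phosphate, and TXNIP, an arrestin-like protein that restrains glucose uptake and binds thioredoxin, is the best known gene activated by MLXIP and MLX. MYC is a frequent oncogene of DLBCL.

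The libraries held 28694398 to 53405456 reads on genes (median 45669254). In HBL1, replicate 3 with shSIRT3-1 stood apart, with a mean correlation of 0.958 to its group on log2(CPM + 0.1), against 0.975 and 0.978 for the other libraries of the group and 0.986 to 0.995 for the remaining 24. Where leaving it out ended a call named here or turned a direction, the value without it is given. SIRT3 lay below every control library of its line in all 18 knockdown libraries, and the group means were 14.5% to 27.3% of the control level with shSIRT3-1 and 22.6% to 54.4% with shSIRT3-2. The mean of each of 6 B-cell markers was at least 1 CPM in all 9 groups, and 11 markers of T, NK, myeloid, epithelial and stromal cells summed to between 0.490 and 10.5 CPM per library. In bulk RNA, fewer cells that express a gene and less RNA per cell cannot be told apart.

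Promoter sequences are shown for TXNIP, where MLXIP and MLX are known to act through a pair of E-boxes, and for MNT and MLX, whose windows hold CACGTG. RefSeq promoters on GRCh38.p14, each 250 bases before and 50 after the start of transcription, were matched for 9 of the members. The first listed promoter of TXNIP (chromosome 1, minus strand, chr1:145996530-145996829) and those of MNT (chromosome 17, minus strand, chr17:2401011-2401310) and MLX (chromosome 17, plus strand, chr17:42566850-42567149) are written 5′ to 3′ on the strand of the gene, with matches to CACGNG or CNCGTG, which include CACGTG, in capitals (each motif is the other read on the opposite strand).
TXNIP: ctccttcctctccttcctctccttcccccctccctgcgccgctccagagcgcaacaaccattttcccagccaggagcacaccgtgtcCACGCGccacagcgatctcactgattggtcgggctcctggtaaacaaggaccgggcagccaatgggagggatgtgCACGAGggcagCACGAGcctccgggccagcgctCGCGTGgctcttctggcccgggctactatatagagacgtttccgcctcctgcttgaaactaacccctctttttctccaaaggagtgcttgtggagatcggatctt
MNT: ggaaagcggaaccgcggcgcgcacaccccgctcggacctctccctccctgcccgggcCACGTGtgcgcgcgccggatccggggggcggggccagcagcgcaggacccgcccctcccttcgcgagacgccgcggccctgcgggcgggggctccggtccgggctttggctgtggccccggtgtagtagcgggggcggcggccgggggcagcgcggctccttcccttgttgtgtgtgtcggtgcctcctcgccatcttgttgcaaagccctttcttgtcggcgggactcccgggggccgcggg
MLX: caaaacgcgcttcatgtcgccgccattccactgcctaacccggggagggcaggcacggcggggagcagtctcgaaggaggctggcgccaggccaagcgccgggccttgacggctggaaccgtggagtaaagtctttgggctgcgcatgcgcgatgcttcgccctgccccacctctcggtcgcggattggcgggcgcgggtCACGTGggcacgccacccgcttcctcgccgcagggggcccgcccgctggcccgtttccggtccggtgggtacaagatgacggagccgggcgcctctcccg
The promoters of MNT and MLX hold CACGTG, with its first base at −193 and −50 relative to the start, and so does that of MXD4, at −238. CACGTG is in 7.26% of the 35116 promoters in the table, and CACGNG or CNCGTG, which includes CACGTG, in 30.5%. TXNIP holds no CACGTG but 4 of the looser sites, at −163, −88, −77 and −55, the middle pair being CACGAG repeated with 5 bases between the copies. At least 2 such sites are in 8.16% of promoters, and 2 with a gap of 5 bases are in 27 of them (0.0769%), of which TXNIP is the only member. These matches describe sequence and are not evidence of binding.

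In the control cells, levels were compared between genes as CPM per kb of the exons of the principal transcript. TXNIP was the highest of the members in Karpas422, at 230.2 ± 124 CPM per kb (SD, n = 3), and in OCI-Ly1, at 181 ± 113, whereas MYC was the highest in HBL1, at 42.3 ± 5.30. MYC followed in Karpas422 with 70.4 ± 3.57 CPM per kb and in OCI-Ly1 with 60.5 ± 3.24, and in OCI-Ly1 the lowest TXNIP library lay within the range of MYC. MAX, the partner shared by MYC and its antagonists, was at 36.4 ± 2.996, 22.6 ± 1.75 and 30.1 ± 0.984 CPM per kb in Karpas422, OCI-Ly1 and HBL1, below MYC in each line. TXNIP in HBL1 was 29.6 ± 9.10 CPM per kb, and its 3 libraries spread over the ranges of MYC, MAX and MXI1. This depends on the exon lengths used. With the lengths of all annotated exons TXNIP in HBL1 was 23.9 ± 7.33, still around the range of MYC. Its lowest library, at 17.0, then lay above every library of MAX and MXI1, which had means of 9.66 and 9.12.

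The antagonist with the highest level differed between the lines. It was MXD4 in Karpas422, with 10.8 ± 0.66 CPM per kb, and MXI1 in OCI-Ly1 and HBL1, with 27.4 ± 2.98 and 22.2 ± 1.59. MLX lay at 14.5 ± 1.27, 8.50 ± 0.81 and 8.85 ± 0.616 CPM per kb and MLXIP at 5.88 ± 0.495, 4.18 ± 0.179 and 3.19 ± 0.297. Some neighbours in the order had overlapping libraries, namely MLXIP, MXD1 and MXD3, and MXI1 and MNT, in Karpas422; MXD4 and MNT, and MLXIP and MXD1, in OCI-Ly1; and MLX and MXD3, and each next pair from MNT to MLXIP, MXD4 and MXD1, in HBL1.

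**Figure D1:**
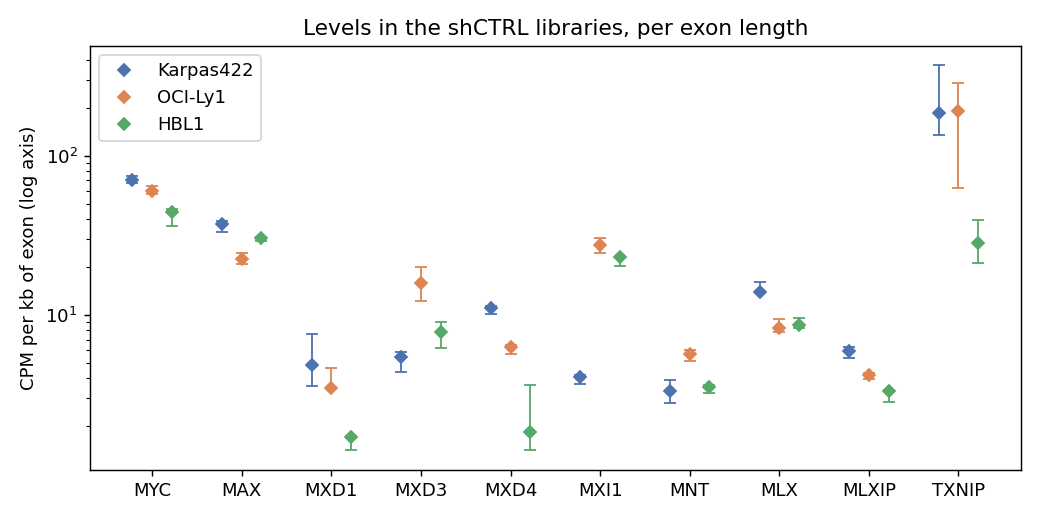
Level of each member in the shCTRL libraries of the 3 lines, as CPM per kb of principal transcript exon on a log axis. Diamonds are medians of 3 libraries and bars run from the lowest to the highest. TXNIP and MYC lie above the other members in Karpas422 and OCI-Ly1, and with these exon lengths TXNIP in HBL1 lies level with MAX.

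The same gene was then compared between lines, and in limma a gene was called where its fold exceeded 1.5 and its p, adjusted by Benjamini-Hochberg, was under 0.05. Of 10 members, 7 differed between HBL1 and Karpas422 (54.8% of all genes tested did), 5 between HBL1 and OCI-Ly1 (54.7%) and 6 between Karpas422 and OCI-Ly1 (51.1%). In the comparisons with OCI-Ly1 the culture medium differed as well as the line. TXNIP in HBL1 had a log2 difference of −2.87 (adjusted p = 1.6e-05) from Karpas422 and −2.40 (adjusted p = 0.00014) from OCI-Ly1. MXI1 was lower in Karpas422 than in the other lines, with log2 differences of 2.47 (adjusted p = 1.1e-10) for HBL1 minus Karpas422 and −2.77 (adjusted p = 1.9e-11) for Karpas422 minus OCI-Ly1. MXD4 was instead highest in Karpas422 and lowest in HBL1, with log2 differences of −2.34 (adjusted p = 1.5e-07) and −1.52 (adjusted p = 5.6e-05) from Karpas422 and OCI-Ly1. MYC was lower in HBL1 than in Karpas422, with a log2 difference of −0.74 (adjusted p = 0.035), while the difference of −0.52 (adjusted p = 0.13) from OCI-Ly1 did not pass.

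Over the 3 lines together, few of these genes were called after SIRT3 knockdown. With shSIRT3-1, 0 of the 10 members were called in limma, against 13% of all genes tested, and 0 were called by edgeR. An unadjusted p under 0.05 was reached by 5 members and an adjusted p under 0.05 by 4, at smaller folds. The 4 were MAX with a log2 fold change of 0.31 ± 0.068 (SE, adjusted p = 0.00084), MLX with 0.30 ± 0.067 (SE, adjusted p = 0.00097), MXI1 with −0.45 ± 0.14 (SE, adjusted p = 0.012) and MLXIP with 0.24 ± 0.089 (SE, adjusted p = 0.035). With shSIRT3-2, 2 members were called, against 13.5% of all genes. MLXIP was higher with 0.60 ± 0.089 (SE, adjusted p = 1.3e-05), as 3.29% of genes were, and TXNIP lower with −1.31 ± 0.32 (SE, adjusted p = 0.0025), as 10.2% were. MXD3, MXI1 and MLX passed the adjusted p with shSIRT3-2 at smaller folds, with −0.47, −0.42 and 0.23. With both shRNAs, 0 members were called in the same direction, as 5.09% of all genes were. SIRT3 was higher with shSIRT3-2 than with shSIRT3-1, by a log2 difference of 1.08 ± 0.17 (SE, adjusted p = 4.6e-05). MLXIP and TXNIP were thus called only with the shRNA that lowered SIRT3 less. The comparisons of the shRNAs share their control libraries, so their values are set side by side with no measure of likeness.

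**Figure D2:**
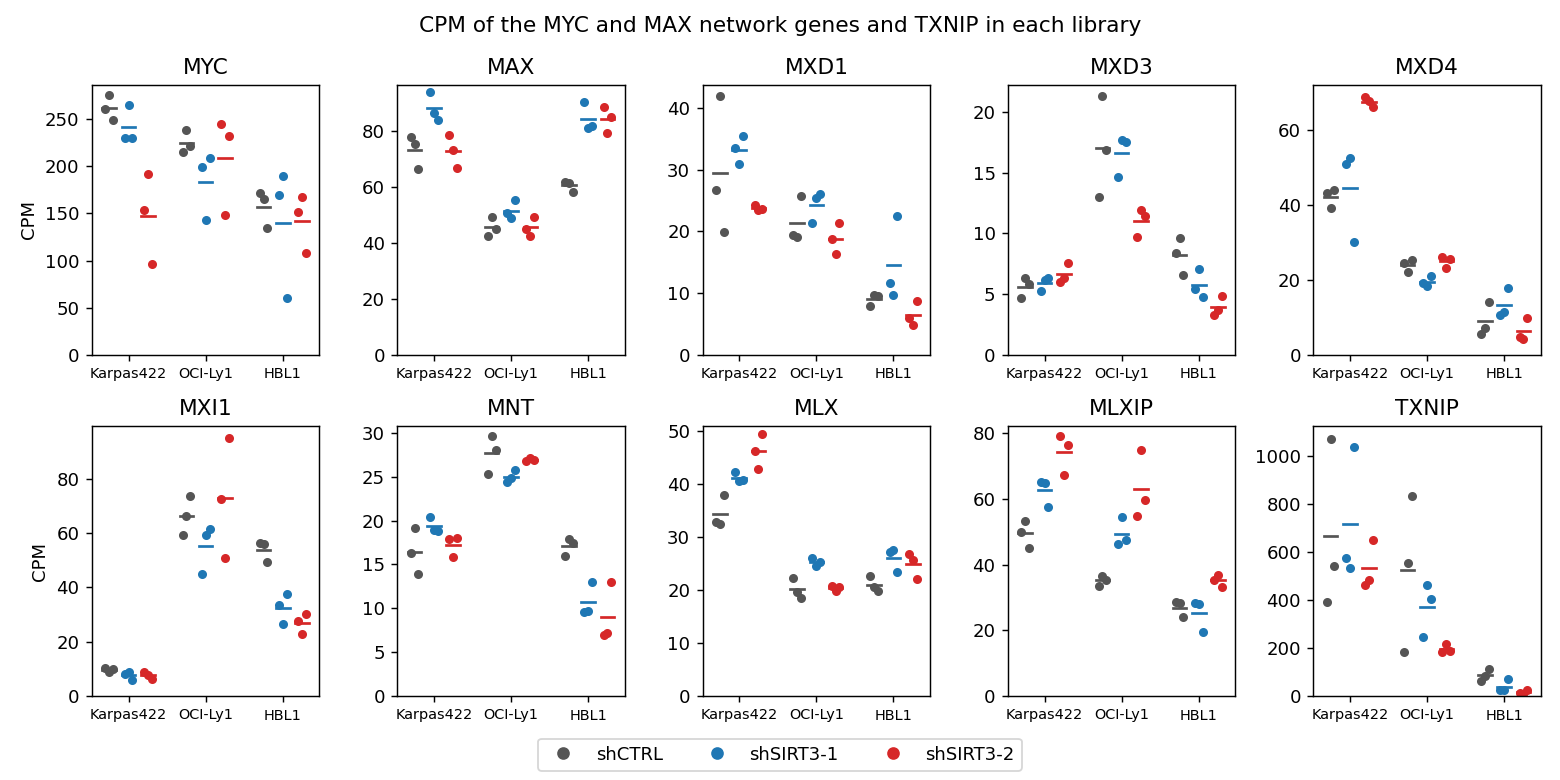
CPM of each member in each of the 27 libraries, by cell line and shRNA. Points are libraries in the order of replicates 1 to 3 and horizontal lines are group means, and each axis starts at 0. In HBL1 the TXNIP, MXI1 and MNT libraries with shSIRT3-2 all lie below the controls, and in Karpas422 MYC does.

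TXNIP lies on chromosome 1 of hg19, from 145438490 to 145442635. Its control libraries in Karpas422 spread from 389 to 1070.2 CPM, and shSIRT3-1 with 572, 535 and 1038 and shSIRT3-2 with 463, 484 and 651 fell in that range. TXNIP was not called there with either shRNA, the log2 fold changes being 0.17 ± 0.36 (SE, adjusted p = 0.75) and −0.21 ± 0.36 (SE, adjusted p = 0.68). In OCI-Ly1 the controls held 182, 555 and 832 CPM, shSIRT3-1 held 246, 463 and 402, and shSIRT3-2 held 183, 217 and 185. The lowest control was below all 3 shSIRT3-2 libraries, the groups overlapped, and the log2 fold change with shSIRT3-2 was −1.17 ± 0.46 (SE, adjusted p = 0.13). With shSIRT3-1 it was −0.29 ± 0.46 (SE, adjusted p = 0.72). Without the lowest control, replicate 1, the log2 fold change was −1.81 (adjusted p = 0.0062) with shSIRT3-2 and −0.92 (adjusted p = 0.045) with shSIRT3-1, both past the thresholds. Of 9 fits that left out 1 OCI-Ly1 library, only this 1 called TXNIP with either shRNA. Over these fits the log2 fold change reached −0.71 with shSIRT3-2 and 0.17 with shSIRT3-1, and the adjusted p reached 0.35 and 0.98. With a block for the replicate number, shSIRT3-2 also passed, at an adjusted p of 0.047 with the log2 fold change of all libraries, −1.17.

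TXNIP fell in HBL1 with shSIRT3-2. The controls held 61.3, 82.5 and 114 CPM and the shSIRT3-2 libraries 12.8, 9.45 and 23.4, without overlap, at a log2 fold change of −2.55 ± 0.47 (SE, adjusted p = 0.0039), which leaves 17.1% of the control level. With shSIRT3-1 the values were 23.4, 24.1 and 69.4 CPM, and replicate 3 lay inside the control range. The log2 fold change of −1.29 ± 0.47 (SE, adjusted p = 0.056) did not pass, and without that replicate it was −1.81 (adjusted p = 0.0040) and did, as it also did without shSIRT3-2 replicate 3, at −1.29 (adjusted p = 0.049). Replicate 3 had the highest TXNIP of its group in all 3 HBL1 groups, every shSIRT3-1 library lay below the control of the same number, and with the replicate block the adjusted p with shSIRT3-1 was 0.0029, past the threshold. The interaction of line and shRNA for TXNIP had an adjusted p of 0.079 without the replicate block and 0.011 with it, so whether the response differed between the lines depended on the block. The fall over the 3 lines was called in all 27 fits that left out 1 library, with log2 fold changes from −1.50 to −1.15, and without HBL1 it was −0.69 (adjusted p = 0.11).

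MLXIP, of the glucose-sensing dimer, rose with shSIRT3-2 in OCI-Ly1 and was just short of a call in Karpas422. MLXIP lies on chromosome 12 of hg19, from 122516628 to 122631894. In OCI-Ly1 its controls held 33.6, 36.6 and 35.4 CPM, shSIRT3-1 46.2, 54.6 and 47.5 and shSIRT3-2 54.8, 74.9 and 59.5. All knockdown libraries lay above the controls, and MLXIP rose with shSIRT3-2, with a log2 fold change of 0.83 ± 0.12 (SE, adjusted p = 0.010), while the 0.49 ± 0.12 (SE, adjusted p = 0.045) with shSIRT3-1 was below the fold threshold. In Karpas422 the controls held 50.1, 53.4 and 45.1 CPM, shSIRT3-1 65.3, 65.01 and 57.5 and shSIRT3-2 79.2, 67.4 and 76.3, again without overlap. The level with shSIRT3-2 was 149.9% of the control, just under the threshold of 1.5-fold, at an adjusted p of 0.0025, and above it without shCTRL replicate 1 or 2 or shSIRT3-2 replicate 2, where the log2 fold change reached 0.65. In HBL1 the shSIRT3-2 libraries held 35.2, 36.96 and 33.3 CPM against 28.5, 28.2 and 24.00 in the controls, with 0.39 ± 0.15 (SE, adjusted p = 0.079), and the shSIRT3-1 libraries, with 28.2, 28.1 and 19.4, overlapped the controls. MLXIP was above the mean of its own controls in all 9 shSIRT3-2 libraries and in 8 of 9 shSIRT3-1 libraries. The call over the 3 lines rested on the fold threshold. Leaving out Karpas422 shCTRL replicate 3, OCI-Ly1 shCTRL replicate 1 or 3, or OCI-Ly1 shSIRT3-2 replicate 2 brought the log2 fold change to between 0.56 and 0.58, under the threshold, with adjusted p of at most 4.3e-05.

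MLX lies on chromosome 17 of hg19, from 40719090 to 40725257. It did not reach the fold threshold in any line. Its shSIRT3-1 libraries lay above every control of their line in all 3 lines, as in OCI-Ly1, where the controls held 22.2, 19.5 and 18.5 CPM and shSIRT3-1 25.98, 24.4 and 25.1. With shSIRT3-2 this was so in Karpas422, where 32.7, 32.4 and 37.8 CPM in the controls stood against 46.2, 42.7 and 49.3, with 0.43 ± 0.089 (SE, adjusted p = 0.0066). The MLX exons share 775 of 4255 annotated bases with PSMC3IP on the opposite strand, and whether the counting used strand is not given in the sources used here.

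MYC lies on chromosome 8 of hg19, from 128747680 to 128755197, and fell in Karpas422 with shSIRT3-2. The controls there held 261, 276 and 249 CPM and shSIRT3-2 154, 192 and 96.5, without overlap, at a log2 fold change of −0.89 ± 0.21 (SE, adjusted p = 0.010), or 54.1% of the control level. With shSIRT3-1 the level was 230.2, 266 and 229.9 CPM, with −0.12 ± 0.21 (SE, adjusted p = 0.69), and MYC was lower with shSIRT3-2 than with shSIRT3-1, by a log2 difference of −0.77 ± 0.21 (SE, adjusted p = 0.026). The summed CPM of 6 B-cell markers was also lower with shSIRT3-2 in Karpas422, at 945 to 1484 against 1633 to 2363 in the controls, and its part in the MYC result was not tested. SIRT3 in this line was at 54.4% of the control level with shSIRT3-2 and at 27.3% with shSIRT3-1. MYC was thus called with the shRNA that lowered SIRT3 less. In OCI-Ly1 MYC held 215, 239 and 222 CPM in the controls, 199.8, 143 and 209 with shSIRT3-1 and 245, 148 and 232 with shSIRT3-2. Replicate 2 was the lowest with either shRNA and the highest among the controls, and neither log2 fold change, −0.31 ± 0.20 (SE, adjusted p = 0.35) and −0.14 ± 0.20 (SE, adjusted p = 0.67), passed. In HBL1 the controls held 171, 166 and 135 CPM, shSIRT3-1 169, 190.1 and 60.7 and shSIRT3-2 151, 168 and 108, replicate 3 being the lowest of each group. The log2 fold change with shSIRT3-1 was −0.32 ± 0.39 (SE, adjusted p = 0.53). Without shSIRT3-1 replicate 3 it was 0.20 (adjusted p = 0.40), but replicate 3 of the controls, the lowest of them, was kept in that fit.

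MAX, on chromosome 14 of hg19 from 65472892 to 65569413, had a higher level in HBL1 with each shRNA, at a fold below the threshold. Its controls held 61.8, 61.4 and 58.2 CPM, shSIRT3-1 90.2, 81.01 and 81.7 and shSIRT3-2 88.5, 79.3 and 85.1, without overlap. The log2 fold changes of 0.48 ± 0.085 (SE, adjusted p = 0.0028) and 0.48 ± 0.085 (SE, adjusted p = 0.0033) were nearly equal, each at a fold of 1.39. In Karpas422 the shSIRT3-1 libraries held 93.8, 86.3 and 83.98 CPM against 77.9, 75.2 and 66.4 in the controls, with 0.27 ± 0.095 (SE, adjusted p = 0.053), and shSIRT3-2 had a log2 fold change of −0.0087 ± 0.095 (SE, adjusted p = 0.95). In OCI-Ly1 the log2 fold changes were 0.18 and 0.00089.

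Among the antagonists, MXI1, MNT and MXD3 fell in HBL1. MXI1, on chromosome 10 of hg19 from 111967363 to 112047123, held 56.3, 55.8 and 49.4 CPM in the controls, 33.6, 26.5 and 37.7 with shSIRT3-1 and 27.7, 22.9 and 30.1 with shSIRT3-2. Neither knockdown group overlapped the controls, and the log2 fold changes were −0.74 ± 0.15 (SE, adjusted p = 0.0056) and −1.01 ± 0.15 (SE, adjusted p = 0.0016). In Karpas422, where MXI1 was low, it held 10.1, 8.95 and 9.87 CPM in the controls and 8.84, 7.88 and 6.16 with shSIRT3-2, without overlap but also without a call. In OCI-Ly1 it held 59.4, 66.4 and 73.8 CPM in the controls, 44.99, 59.3 and 61.4 with shSIRT3-1 and 72.5, 51.02 and 95.03 with shSIRT3-2. The shSIRT3-2 libraries of OCI-Ly1 spread to both sides of the controls, and neither group was called.

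MNT, on chromosome 17 from 2287367 to 2304398, held 15.9, 17.9 and 17.4 CPM in the controls, 9.63, 9.70 and 12.99 with shSIRT3-1 and 6.97, 7.14 and 12.97 with shSIRT3-2, also without overlap, at −0.67 ± 0.24 (SE, adjusted p = 0.049) and −0.97 ± 0.24 (SE, adjusted p = 0.013). The MNT call with shSIRT3-1 was near its threshold and was lost in 7 of 9 fits that left out 1 HBL1 library, where the adjusted p reached 0.13. It held only without replicate 3 of shSIRT3-1 or of shSIRT3-2, and without the former the value was −0.81 (adjusted p = 0.023). With shSIRT3-2 the call was lost without shCTRL replicate 2 or without shSIRT3-2 replicate 1 or 2, where the adjusted p reached 0.056. Outside HBL1, MNT held 16.4, 19.2 and 13.9 CPM in the Karpas422 controls and 25.4, 29.7 and 28.1 in those of OCI-Ly1, and all knockdown groups there overlapped their controls.

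MXD3, on chromosome 5 of hg19 from 176728462 to 176739758, held 8.39, 9.62 and 6.59 CPM in the HBL1 controls and 3.26, 3.67 and 4.81 with shSIRT3-2, without overlap, at −1.05 ± 0.21 (SE, adjusted p = 0.0061). With shSIRT3-1 the values 5.42, 7.10 and 4.76 overlapped the controls, at −0.50 ± 0.21 (SE, adjusted p = 0.090), which of the 9 fits that left out 1 HBL1 library passed only in that without shSIRT3-1 replicate 2, at −0.66 (adjusted p = 0.045). In OCI-Ly1 the shSIRT3-2 libraries, with 9.71, 11.9 and 11.5 CPM, were below the controls, with 12.98, 21.4 and 16.9, but the −0.60 ± 0.17 (SE, adjusted p = 0.058) did not pass, except with the replicate block (adjusted p = 0.014) and without shCTRL replicate 1, where it was −0.78 (adjusted p = 0.012). MXD3 shares 1148 of its 4743 exon bases with PRELID1 on the opposite strand and 926 with RAB24 on its own strand, and its level is uncertain to that extent.

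MXD4 rose in Karpas422 with shSIRT3-2, in the same group in which MYC fell. MXD4, on chromosome 4 of hg19 from 2249159 to 2263836, held 43.02, 39.1 and 43.9 CPM in the controls and 68.7, 67.7 and 65.9 with shSIRT3-2, without overlap, at 0.68 ± 0.18 (SE, adjusted p = 0.018). The call was lost without shCTRL replicate 2 or shSIRT3-2 replicate 1, where the log2 fold change was still at least 0.63 and the adjusted p at most 0.064. With shSIRT3-1 the Karpas422 libraries held 50.8, 52.4 and 29.97 CPM, at 0.038. In HBL1 replicate 3 was the highest of each group, with 5.47, 7.19 and 13.99 CPM in the controls, 10.5, 11.3 and 17.7 with shSIRT3-1 and 4.77, 4.26 and 9.85 with shSIRT3-2, and the log2 fold changes of 0.64 ± 0.41 (SE, adjusted p = 0.24) and −0.48 ± 0.41 (SE, adjusted p = 0.39) did not pass. With the replicate block the former did, at an adjusted p of 0.012, and without shSIRT3-1 replicate 3 it was 0.41 (adjusted p = 0.46).

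MXD1, on chromosome 2 of hg19 from 70124820 to 70170077, was not called against shCTRL in any line. Its HBL1 controls held 7.88, 9.61 and 9.51 CPM, shSIRT3-1 11.6, 9.68 and 22.5 and shSIRT3-2 5.90, 4.88 and 8.65, and the log2 fold changes were 0.60 ± 0.31 (SE, adjusted p = 0.16) and −0.50 ± 0.31 (SE, adjusted p = 0.24). In direct comparison shSIRT3-2 was lower than shSIRT3-1 there, by a log2 difference of −1.10 ± 0.31 (SE, adjusted p = 0.024). Without shSIRT3-1 replicate 3, its highest library, the value with shSIRT3-1 was 0.24 (adjusted p = 0.40) and the difference between the shRNAs −0.74 (adjusted p = 0.027). In Karpas422 it held 26.8, 41.95 and 19.9 CPM in the controls, 33.5, 31.01 and 35.4 with shSIRT3-1 and 24.3, 23.5 and 23.6 with shSIRT3-2, and the controls spread more than either knockdown group. In OCI-Ly1 it held 19.3, 19.2 and 25.8, 21.4, 25.5 and 26.1 and 18.8, 16.3 and 21.4 CPM in the same order, with overlap. Its exons share 237 of 6351 bases with SNRNP27 on the same strand.

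Over the fits of single lines, 9 of 60 comparisons of a member with shCTRL were called. In Karpas422 with shSIRT3-1, 0 of 10 members were called in limma, against 16% of all genes. By edgeR 0 were called, and 3 had an unadjusted p under 0.05. In OCI-Ly1 with shSIRT3-1, 0 were called in limma, against 4.5% of all genes, 0 by edgeR, and 3 had an unadjusted p under 0.05. The other counts were 2 with shSIRT3-2 in Karpas422 (15%), 1 with shSIRT3-2 in OCI-Ly1 (6.41%), and 2 with shSIRT3-1 (27.7%) and 4 with shSIRT3-2 in HBL1 (23.5%). By edgeR these 4 counts were 3, 2, 2 and 4. All shares of genes given here are of limma calls, not of edgeR calls or of unadjusted p. With the replicate block the count was 13 of 60, with 3 for shSIRT3-2 in OCI-Ly1 (9.1% of all genes) and 4 for shSIRT3-1 in HBL1 (31.5%). Without the block, all members called in HBL1 were lower, as 18.8% of genes were with shSIRT3-1 and 16% with shSIRT3-2. The members called higher numbered 0, against 8.83% and 7.51% of genes. With the block, MXD4 was called higher there with shSIRT3-1. In HBL1 the median log2 fold change of all genes was −0.11 with shSIRT3-1 and −0.059 with shSIRT3-2. Of 6 B-cell markers, 4 were called lower and 1, CD79A, higher with shSIRT3-2 in HBL1. The 6 summed to 1495 to 1572 CPM there, against 1779 to 2194 in the controls. With shSIRT3-1, 3 of 8 genes of dividing cells were called lower in HBL1, and the part of these shifts in the members' values was not tested.

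By libraries alone, members whose 3 knockdown libraries all lay to 1 side of the 3 controls were counted. In HBL1 with shSIRT3-2, MXD3, MXI1, MNT and TXNIP lay below every control, as 34% of all genes did, and MAX and MLXIP lay above, as 24.9% did. In HBL1 with shSIRT3-1, MXI1 and MNT lay below (29.7%), and MAX, MXD1 and MLX above (19.3%). In Karpas422, MYC and MXI1 lay below with shSIRT3-2 (23.4%), MXD4, MLX and MLXIP above (20.6%), 0 members below with shSIRT3-1 (29.2%), and MAX, MLX and MLXIP above (18%). In OCI-Ly1, MYC and MXD4 lay below with shSIRT3-1 (13.4%) and MLX and MLXIP above (16%), and with shSIRT3-2 MXD3 lay below (17.2%) and MLXIP above (14.6%).

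**Figure D3:**
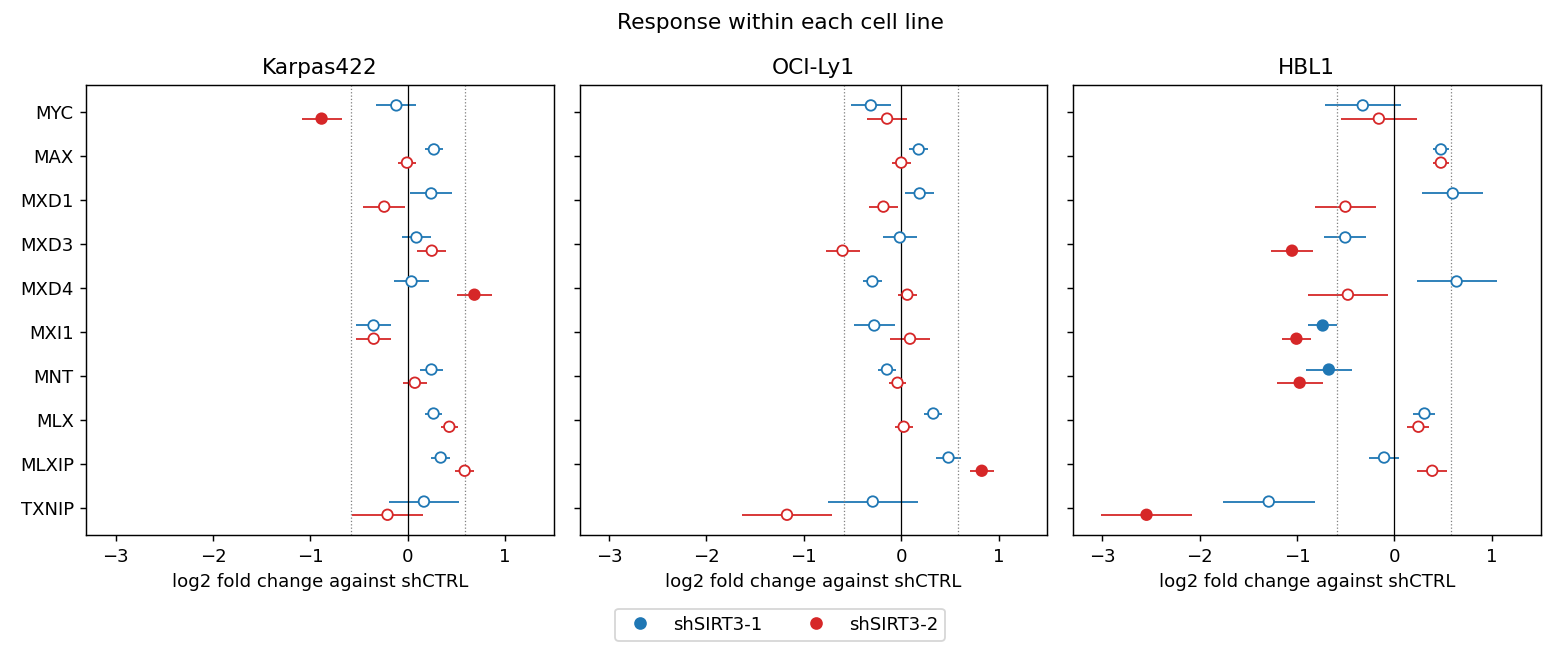
Log2 fold change of each member against shCTRL in fits of each cell line alone, with standard errors as bars. Filled points passed a fold of 1.5, drawn as dotted lines, and an adjusted p under 0.05. The 9 filled points are MYC and MXD4 in Karpas422, MLXIP in OCI-Ly1, and MXD3, MXI1, MNT and TXNIP in HBL1, where MXI1 and MNT are filled with both shRNAs.

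By the F test of line by shRNA interaction in limma, 6 of 10 members responded unequally in the 3 lines, against 41.8% of all genes. These were MNT (adjusted p = 0.0058), MXD3 (0.0074), MXD4 (0.010), MAX (0.017), MXI1 (0.036) and MLX (0.0495). For MNT the log2 fold changes with shSIRT3-1 and shSIRT3-2 were 0.24 and 0.072 for Karpas422, −0.14 and −0.037 for OCI-Ly1, and −0.67 and −0.97 for HBL1. For MXI1 they were −0.35 and −0.35, −0.28 and 0.091, and −0.74 and −1.01 in the same order. MYC (0.24), MXD1 (0.40), MLXIP (0.071) and TXNIP did not pass. The calls of MNT, MXD3 and MXD4 held in all 27 fits that left out 1 library. Each was lost in 2 other settings, without replicate 1 and without replicate 2 of every group, where the adjusted p reached 0.26, 0.21 and 0.20. MAX was lost without HBL1 shSIRT3-2 replicate 1 (adjusted p = 0.053), MXI1 in 7 fits (at most 0.092) and MLX in 19 (at most 0.12). The fits that lost MXI1 left out OCI-Ly1 shCTRL replicate 1, OCI-Ly1 shSIRT3-2 replicate 1 or 3, HBL1 shCTRL replicate 1 or 2, or HBL1 shSIRT3-2 replicate 1 or 2. TXNIP passed in 5 such fits, without Karpas422 shCTRL replicate 2, OCI-Ly1 shCTRL replicate 1 or 3, HBL1 shSIRT3-1 replicate 3 (0.033) or HBL1 shSIRT3-2 replicate 3. MLXIP passed in 2, without HBL1 shSIRT3-1 replicate 1 (0.044) or 2 (0.041). With the replicate block 8 members passed (58.8% of all genes), TXNIP (0.011) and MLXIP (0.011) being added. Without HBL1 shSIRT3-2 replicate 1, 3 members passed. MLX was also lost with quantile normalization (0.090) and by edgeR's quasi-likelihood test (0.076), among other settings.

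Between the shRNAs, shSIRT3-2 differed from shSIRT3-1 over the 3 lines for 2 of 10 members, against 11.3% of all genes. MXD1 was lower with shSIRT3-2, at −0.65 ± 0.15 (SE, adjusted p = 0.0020), and so was TXNIP, at −0.84 ± 0.32 (SE, adjusted p = 0.048). Without HBL1 shSIRT3-1 replicate 3, and without HBL1 shSIRT3-2 replicate 2, neither was called, and in 13 other fits that left out 1 library only 1 was. MLXIP had 0.36 ± 0.089 (SE, adjusted p = 0.0031), under the fold threshold. Within lines, MYC and MXD4 differed between the shRNAs in Karpas422 (11.5% of genes called), MXD4 being higher with shSIRT3-2 at 0.65 ± 0.18 (SE, adjusted p = 0.031). MXD1 differed in HBL1 (27.9%), and 0 members did in OCI-Ly1 (4.68%) in limma or edgeR, where 5 had an unadjusted p under 0.05. With the replicate block MXD3 differed in OCI-Ly1 (6.56% of genes) at −0.59 ± 0.11 (SE, adjusted p = 0.015), and in HBL1 (32.3%) MXD4 at −1.12 ± 0.15 (SE, adjusted p = 0.0017) and TXNIP at −1.26 ± 0.21 (SE, adjusted p = 0.0036) were added, all lower with shSIRT3-2.

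The balance of MYC against its antagonists was described as the CPM per kb of MYC divided by the sum of MXD1, MXD3, MXD4, MXI1 and MNT, which depends on the exon lengths used and was not tested. In Karpas422 the ratio was 2.52, 2.38 and 2.46 in the controls, 1.96, 2.20 and 2.35 with shSIRT3-1 and 1.18, 1.51 and 0.75 with shSIRT3-2. With these lengths all knockdown libraries were below the controls, those with shSIRT3-2 by the larger margin. With the lengths of all annotated exons, shSIRT3-1 replicate 3 was not below every control. In HBL1 it was 1.24, 1.13 and 1.02 in the controls, 1.77, 2.11 and 0.521 with shSIRT3-1 and 2.24, 2.77 and 1.23 with shSIRT3-2. Replicates 1 and 2 lay above the controls with either shRNA, while replicate 3 was the lowest in each group, and with shSIRT3-1 it lay below all controls. In OCI-Ly1 the group means were 1.03 ± 0.088, 0.948 ± 0.238 and 1.003 ± 0.184 (SD, n = 3 each), and the libraries overlapped.

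**Figure D4:**
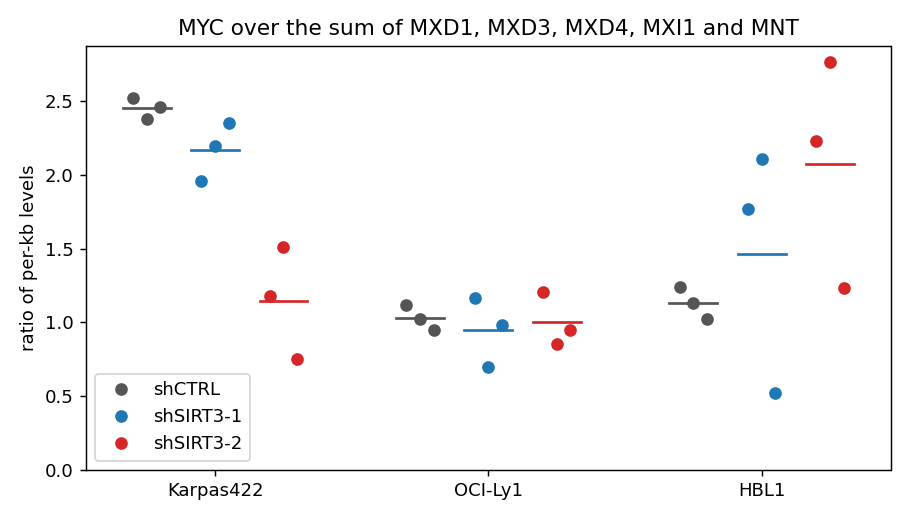
Ratio of the MYC level to the summed level of MXD1, MXD3, MXD4, MXI1 and MNT, each as CPM per kb of exon, in each library. Points are libraries in the order of replicates 1 to 3 and lines are group means. With shSIRT3-2 the ratio is 0.75 to 1.51 in Karpas422, where the controls lie at 2.38 to 2.52, and 1.23 to 2.77 in HBL1, where the controls lie at 1.02 to 1.24.

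Other genes of the pathway were counted in lists, to be read against the 13% and 13.5% of all genes called over the 3 lines with shSIRT3-1 and shSIRT3-2. Of 19 tested genes of ribosome production that MYC is known to activate, 0 were called with shSIRT3-1 over the 3 lines in limma (7 at an unadjusted p under 0.05, 1 by edgeR) and 2 with shSIRT3-2, both higher, NOP16 at 0.60 (adjusted p = 0.0065) and UTP20 at 0.59 (adjusted p = 0.0012). The median log2 fold change of the list was 0.099 with shSIRT3-1 and 0.21 with shSIRT3-2, beside −0.047 and −0.034 for all genes. Of 19 tested growth and cell cycle targets, 1 was called lower with shSIRT3-1, TFAP4 at −0.63 (adjusted p = 0.0056), which was −0.47 (adjusted p = 0.0056) and not called without HBL1 shSIRT3-1 replicate 3, and 5 were called with shSIRT3-2. Those were SRM at 0.63 (adjusted p = 0.0091), NME1 at 0.65 (adjusted p = 0.027), HSPE1 at 0.74 (adjusted p = 0.00058) and TFRC, the transferrin receptor, at 0.87 (adjusted p = 0.0023), all higher, and CCND2, cyclin D2, lower at −1.55 (adjusted p = 0.031). CCND2 had a mean of 731 CPM in the HBL1 controls and 374 with shSIRT3-2, at −0.98 (adjusted p = 0.22) in that line alone, but under 1 CPM in the controls of the other lines, too low to be tested there. In Karpas422 with shSIRT3-2, where MYC fell, the medians of the lists were 0.034 and −0.0029, with 1 of 19 ribosome genes called higher, MYBBP1A, and 3 of 17 growth genes called, SRM higher and EIF4E and SLC16A1 lower, where 15% of all genes were called. In HBL1 with shSIRT3-2, where MXD3, MXI1 and MNT fell, the medians were 0.40 and 0.56, with 2 of 19 ribosome genes called higher, UTP20 and IPO4, and 5 of 19 growth genes called higher, ODC1, CDK4, EIF4E, NME1 and HSPE1, where 23.5% of all genes were called. Without shSIRT3-1 replicate 3, which enters the spread of that fit, 6 of 19 ribosome genes were called higher and, of 19 growth genes, 8 higher and 2 lower (28.6% of all genes). With shSIRT3-1 in HBL1 the medians were −0.12 and −0.26, and without its replicate 3 they turned to 0.21 and 0.25, with replicate 3 of the controls kept. Medians were also above 0 in groups where no antagonist was called without the replicate block. In Karpas422 with shSIRT3-1 they were 0.29 and 0.062, with 4 of 19 ribosome genes called higher and 2 of 17 growth genes lower (16% of all genes). In OCI-Ly1 they were 0.24 and 0.20 with shSIRT3-1 and 0.23 and 0.28 with shSIRT3-2. There 1 of 19 ribosome genes was called higher with shSIRT3-1 and 1 of 18 growth genes with shSIRT3-2. Genes named here, other than CDKN1A below, were named because their list had few calls, after their values were seen.

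**Figure D5:**
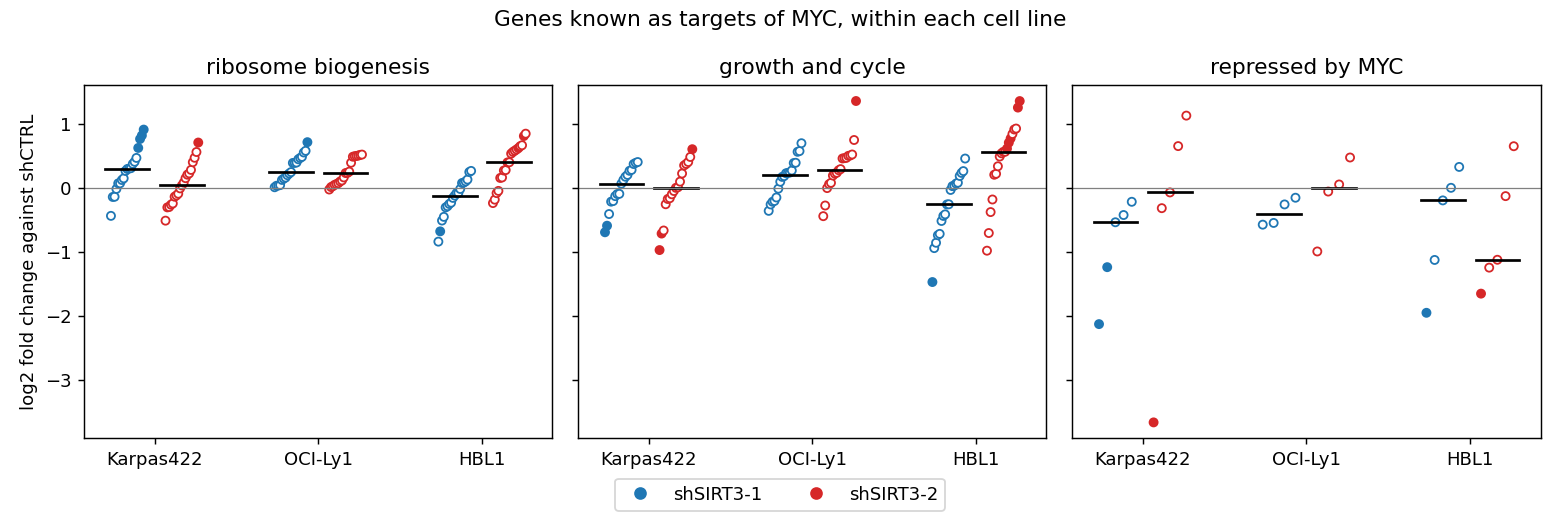
Log2 fold change against shCTRL of genes known to be activated by MYC for ribosome production (left), activated for growth and the cell cycle (middle) or repressed by MYC (right), in fits of each cell line alone. Points are genes, filled where called, and black lines are medians. In HBL1 the medians of the activated lists lie at 0.40 and 0.56 with shSIRT3-2 and at −0.12 and −0.26 with shSIRT3-1, which turn to 0.21 and 0.25 without HBL1 shSIRT3-1 replicate 3.

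Of 5 tested genes that MYC is known to repress, CDKN1A, which encodes the cell cycle inhibitor p21, was called lower with both shRNAs over the 3 lines, at −1.27 (adjusted p = 0.0089) and −1.66 (adjusted p = 0.0011). Its CPM in Karpas422 was 5.14 ± 0.933 in the controls, 1.13 ± 0.398 with shSIRT3-1 and 0.314 ± 0.077 with shSIRT3-2 (SD, n = 3 each). It was called in that line with each shRNA, at −2.13 (adjusted p = 0.00065) and −3.66 (adjusted p = 4.9e-05). In HBL1 its CPM was 274 ± 27.5, 152 ± 93.4 and 118 ± 31.5. Neither difference there was called in the fit of the line, except that with shSIRT3-2 without shSIRT3-1 replicate 3, at −1.25 (adjusted p = 0.0010). In OCI-Ly1 its CPM was 31.7 ± 14.98, 20.7 ± 6.499 and 28.4 ± 5.82, with log2 fold changes of −0.55 (adjusted p = 0.33) and −0.061 (adjusted p = 0.92), neither of them called. Its response differed between the lines (adjusted p = 0.0016). GADD45A, a stress-induced growth arrest gene, was called lower with shSIRT3-1, at −1.02 (adjusted p = 0.0084). It was not called with shSIRT3-2, which had 1.12 ± 0.47 (SE, adjusted p = 0.093) in Karpas422. CDKN1B was called lower in Karpas422 with shSIRT3-1, at −1.24 (adjusted p = 0.0093), but not with shSIRT3-2, at −0.32 (adjusted p = 0.41). Of 17 tested cofactors and turnover factors of MYC, 1 was called, SKP2, a ubiquitin ligase subunit that targets MYC, higher with shSIRT3-2 at 0.86 (adjusted p = 1.7e-06) and in each line with that shRNA. FBXW7, another such subunit, was called higher in Karpas422 with each shRNA, at 0.66 (adjusted p = 0.0086) and 0.59 (adjusted p = 0.015), and in HBL1 with shSIRT3-1, at 0.66 (adjusted p = 0.0073), but not without replicate 3, at 0.56 (adjusted p = 0.011). Of the 10 tested SIN3 and histone deacetylase subunits, 0 were called with either shRNA over the 3 lines in limma or edgeR, and 5 with shSIRT3-1 and 2 with shSIRT3-2 had an unadjusted p under 0.05. Of the 2 tested relatives of MYC and MLX, MYCL was lower with shSIRT3-2, at −1.18 (adjusted p = 0.00033), and in Karpas422 with both shRNAs. In OCI-Ly1 and HBL1 MYCL was too low to be tested in the fit of the line.

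Around TXNIP, 0 of 3 tested arrestin relatives were called with either shRNA in limma or edgeR, and 0 had an unadjusted p under 0.05. Of 4 tested genes of the thioredoxin system, TXN, the thioredoxin that TXNIP binds, was called higher with shSIRT3-2, at 0.59 (adjusted p = 0.013), and in HBL1 alone at 1.61 (adjusted p = 0.00058). Of 8 tested genes, namely transporters and kinases of glucose metabolism and KLF10, a transcription factor, SLC2A3, which encodes the glucose transporter GLUT3, was called lower with shSIRT3-2, at −0.85 (adjusted p = 0.0086). In HBL1 SLC2A1, the gene of GLUT1, was higher with shSIRT3-1, at 1.12 (adjusted p = 0.0021), and had 0.52 (adjusted p = 0.055) with shSIRT3-2. In Karpas422 KLF10 was the only gene of this list called, higher with each shRNA, at 1.65 (adjusted p = 0.0026) and 1.09 (adjusted p = 0.018).

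The genes whose 6 log2 fold changes (3 lines by 2 shRNAs) lay closest to those of TXNIP were SLC23A1, CNR2 and LINC01588, with root mean square differences of 0.248, 0.275 and 0.326 on the log2 scale. CNR2, a cannabinoid receptor of B cells, held 20.2 ± 4.53 CPM in the HBL1 controls, 12.4 ± 5.64 with shSIRT3-1 and 2.90 ± 0.929 with shSIRT3-2 (SD, n = 3 each). SLC23A1 and LINC01588 were at most 3.34 and 4.59 CPM in any group mean. Closest to MYC were AGTRAP, MOB3A and ZDBF2, at 0.121, 0.128 and 0.131, each with its most negative value, −0.74, −0.67 and −0.86, in Karpas422 with shSIRT3-2. Likeness over 6 comparisons, which share controls in pairs, was taken from 13076 genes and is a description only.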

How the data were processed

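RNA-seq was carried out on 27 libraries of DLBCL cell lines. The authors aligned paired-end reads to hg19 with STAR and assigned them to RefSeq genes with Rsubread, whose versions are not given in the sources used here. The deposited values are labelled FPKM, but in every library 100% of the low values were whole multiples, within 0.01 reads, of a step that did not vary with gene length, and they were therefore treated as CPM. The fit had been planned for FPKM and was applied unchanged. The deposited CPM added up, per library, to 40.31% to 45.6% of the read total they were scaled to. Reads were recovered by dividing by the step, which is less certain in 2 OCI-Ly1 libraries, shCTRL replicate 3 and shSIRT3-2 replicate 1.

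Values were analysed as log2(CPM + 0.1) with limma 3.58.1 in R 4.3.3, with empirical Bayes moderation and a variance trend, over the genes with at least 1 CPM in at least 3 of the libraries fitted. The model had terms for cell line and shRNA, each line was also fitted alone, and interaction terms were tested together. A gene was called where its fold exceeded 1.5 and its p, adjusted over all genes tested by Benjamini-Hochberg, was under 0.05, and fold changes understate those of low genes. Exon lengths are from GENCODE on hg19. Alternatives were pseudocounts of 1 and 0.01, no filter, median-ratio or quantile scaling, moderation without a trend, a replicate block, edgeR 4.0.16 on recovered reads, and leaving out each replicate, line or group. Leaving out each library was chosen after seeing the data. Deviations of same-numbered replicates from their group means correlated at 0.11 to 0.56 in all 9 pairs of OCI-Ly1 and 0.22 to 0.50 in all 9 of HBL1. In Karpas422 8 of 9 pairs were over 0.1 and the lowest was 0.014. The labels do not say what the replicate numbers mean. The reported fits had no term for them, and so ignore any pairing, except where the replicate block is named. The models were tested on simulated data. Python 3.11.15 read the files.

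The members and lists were chosen with earlier results of these data known. Named genes are the members, SIRT3, up to 3 genes of each list called in the same direction with both shRNAs, and the 3 genes closest to TXNIP and to MYC in log2 fold change. By this rule CDKN1A was the only list gene, and the other genes named were chosen after their values were seen, where a list had few calls.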

Additional observations from a re-analysis of the deposited data

Results flagged for a closer look

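The response to the shRNAs differed between Karpas422, OCI-Ly1 and HBL1 for 6 of the 10 members by limma's F test on the interaction terms, with adjusted p of 0.0058 for MNT, 0.0074 for MXD3, 0.010 for MXD4, 0.017 for MAX, 0.036 for MXI1 and 0.0495 for MLX. This test was passed by 41.8% of all genes. None of the 6 passed it without replicate 1, or without replicate 2, of every group. MNT, MXD3 and MXI1 had their most negative log2 fold change in HBL1 with shSIRT3-2, at −0.97, −1.05 and −1.01. MXD4 had its highest value in Karpas422 with shSIRT3-2, at 0.68, and MAX had its highest values in HBL1, at 0.48 with either shRNA. MLX ran from 0.027 in OCI-Ly1 to 0.43 in Karpas422, both with shSIRT3-2, and its adjusted p was the closest to the threshold.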

How the results depend on the processing

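The count of members that differed between the shRNAs was 1 with no filter on low values, 1 without a variance trend, 1 leaving out OCI-Ly1 and 0 leaving out HBL1. The count with shSIRT3-2 against shCTRL was 1 leaving out HBL1, where MLXIP was still called and TXNIP was not. With shSIRT3-2, MXD3 became called leaving out Karpas422 (−0.83, adjusted p = 0.0011) and without replicate 3 (−0.60, adjusted p = 0.025), and MXI1 leaving out OCI-Ly1 (−0.68, adjusted p = 0.0015). Leaving out a replicate number or a library gave 1 to 2 members with shSIRT3-2, 0 to 2 between the shRNAs, 0 to 7 for the interaction and 1 to 12 of 60 within lines. Without replicate 1 or replicate 2 of every group the interaction called 0 members, of 348 and 2011 genes in all, with 18 libraries fitted. TXNIP with shSIRT3-2 was −1.03 (adjusted p = 0.10) without replicate 2, and MLXIP was 0.49 leaving out OCI-Ly1 and 0.57 without replicate 3, both under the fold threshold. Directions that turned, none of them called, were MXD3 at 0.038, MXD4 at −0.13 and MNT at 0.049 with shSIRT3-1 leaving out HBL1, MAX at −0.0039 and MNT at 0.017 with shSIRT3-2 leaving out HBL1, MXD4 at −0.21 with shSIRT3-2 leaving out Karpas422, and MXD4 at −0.0085 with shSIRT3-1 without HBL1 shSIRT3-1 replicate 3, the lowest of its values with a replicate or library left out, which reached 0.27. In HBL1 the call of MNT with shSIRT3-1 was lost under quantile normalization (−0.54, adjusted p = 0.084) and with edgeR (−0.55, adjusted p = 0.098). Quantile normalization moved the share of lower genes among all calls from 69.9% to 54.6% with shSIRT3-1 and from 75.6% to 57.4% with shSIRT3-2. With the replicate block, 0, 2 and 2 members were called over the lines, 13 within lines and 8 by interaction, and it changed no other call of a member than those given with it in the text. The causes were not tested.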

Other observations

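All 6 markers of B cells were tested in each line. In Karpas422 with shSIRT3-2, 4 were called lower, CD22 at a log2 fold change of −3.04 (adjusted p = 0.016), PAX5 at −0.87 (adjusted p = 0.0019), MS4A1 (CD20) at −0.86 (adjusted p = 0.046) and CD79A at −0.67 (adjusted p = 0.049). In HBL1 with shSIRT3-2, those called lower included CD22 at −2.82 (adjusted p = 0.0010), PAX5 at −1.07 (adjusted p = 0.023) and MS4A1 at −0.72 (adjusted p = 0.0498), while CD79A was called higher at 0.69 (adjusted p = 0.018). With shSIRT3-1 the called markers were CD79A and CD79B, higher, and PAX5, lower, in HBL1, and MS4A1, higher, in OCI-Ly1. In Karpas422 none was called with shSIRT3-1.

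Among other factors that bind E-boxes, SREBF1, an activator of lipid synthesis genes, was called lower over the 3 lines with shSIRT3-2, at −0.72 (adjusted p = 0.0082), as 1 of 8 tested. In fits of each line alone, USF1 was higher in Karpas422 with shSIRT3-2, at 0.67 (adjusted p = 0.0019), and USF2 was lower with shSIRT3-1 and TFEB, a factor for lysosomal genes, with shSIRT3-2 in HBL1, at −0.60 (adjusted p = 0.0038) and −0.71 (adjusted p = 0.0040). Without HBL1 shSIRT3-1 replicate 3, USF2 was −0.54 (adjusted p = 0.0049) and not called. Among genes of dividing cells, MCM6, a helicase subunit of DNA replication, was called lower with shSIRT3-1, at −1.05 (adjusted p = 0.00011), as 1 of 8 tested, and 0 were called with shSIRT3-2 in limma or edgeR, or had an unadjusted p under 0.05. In HBL1 with shSIRT3-1 the 3 lower genes were MCM6 at −1.77 (adjusted p = 0.0055), TOP2A at −1.51 (adjusted p = 0.048) and MCM2 at −1.13 (adjusted p = 0.025), and without replicate 3 they were −1.31 (adjusted p = 0.0014), −0.80 (adjusted p = 0.028) and −0.76 (adjusted p = 0.029), all still called. Among 4 tested markers of other cells, CD8A was called lower with shSIRT3-1, though not without HBL1 shSIRT3-1 replicate 3 (adjusted p = 0.057), and EPCAM with shSIRT3-2. The cause of these values was not tested.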
